A study of Mus musculus with 6 samples.

Results

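The interferon-stimulated genes and the antigen processing genes of mouse cardiac fibroblasts were followed through TGFβ treatment. They are 39 genes, found by symbol among the 25140 genes of the deposited count table, and they were chosen by name and known function, not by a threshold on these counts. Earlier results of these data were known when they were chosen. No interferon was added in the study, so the name "interferon-stimulated" comes from what is known of these genes in other settings and was not put to a test here. Primary cardiac fibroblasts of adult C57BL/6 mice at passage 1 were grown in high-glucose DMEM, held in 1% FBS and given either vehicle or 10 ng/ml TGFβ, the cytokine that drives fibroblasts to become contractile myofibroblasts, for 24 h (3 biological replicates each). The labels name no transgene or deletion in either group. The text of the paper calls the cells MEFs in its results, and the low-serum period was 16 h by the labels and 24 h by the methods.

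Interferons are secreted when cells detect foreign or misplaced nucleic acid. Type I interferons bind the receptor pair IFNAR1 and IFNAR2, and type II interferon binds IFNGR1 and IFNGR2. Janus kinases at these receptors phosphorylate STAT factors. The complex ISGF3, which contains STAT2 and IRF9, binds interferon-stimulated response elements (ISRE) in promoters, and STAT homodimers bind gamma-activated sequences (GAS). The genes switched on in this way code for RNA and DNA sensors, antiviral effectors and the machinery that cuts proteins and loads their peptides on MHC class I. Fibroblasts transcribe many of these genes at a low level without infection.

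The promoters shown here belong to genes picked by name, because they show how differently these genes are laid out around their start sites. They over-represent the ISRE core described below, which all but *Psmb9* hold, while 15 of the 30 genes with a window do. They are the 250 bases before and the 50 bases after the start of transcription, from RefSeq on GRCm38.p6, written 5′ to 3′ along the gene's own strand. Capitals mark each match to the ISRE core, which is GAAA, any 2 bases and GAAA again, on either strand (on the opposite strand it reads TTTC, any 2 bases and TTTC).
*Ifit1*, chr19:34640639-34640938, plus strand: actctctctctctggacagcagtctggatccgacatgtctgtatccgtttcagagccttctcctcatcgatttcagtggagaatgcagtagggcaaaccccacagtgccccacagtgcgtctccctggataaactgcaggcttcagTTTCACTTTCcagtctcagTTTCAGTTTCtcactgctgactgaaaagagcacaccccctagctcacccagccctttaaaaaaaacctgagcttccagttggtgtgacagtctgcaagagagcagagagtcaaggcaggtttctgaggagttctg
*Ifit3*, chr19:34583279-34583578, plus strand: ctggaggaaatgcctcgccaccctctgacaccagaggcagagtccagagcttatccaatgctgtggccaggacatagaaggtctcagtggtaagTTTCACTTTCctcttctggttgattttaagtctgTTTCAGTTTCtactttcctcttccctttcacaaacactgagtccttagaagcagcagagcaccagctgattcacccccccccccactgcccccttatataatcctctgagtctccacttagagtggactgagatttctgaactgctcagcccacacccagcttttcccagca
*Isg15*, chr4:156200769-156201068, minus strand: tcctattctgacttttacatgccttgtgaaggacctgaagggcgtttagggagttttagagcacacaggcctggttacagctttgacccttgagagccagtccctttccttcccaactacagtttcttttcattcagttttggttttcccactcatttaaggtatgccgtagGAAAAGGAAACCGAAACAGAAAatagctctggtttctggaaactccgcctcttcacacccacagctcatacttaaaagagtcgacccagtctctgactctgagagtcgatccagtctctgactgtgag
*Gbp2*, chr3:142620413-142620712, plus strand: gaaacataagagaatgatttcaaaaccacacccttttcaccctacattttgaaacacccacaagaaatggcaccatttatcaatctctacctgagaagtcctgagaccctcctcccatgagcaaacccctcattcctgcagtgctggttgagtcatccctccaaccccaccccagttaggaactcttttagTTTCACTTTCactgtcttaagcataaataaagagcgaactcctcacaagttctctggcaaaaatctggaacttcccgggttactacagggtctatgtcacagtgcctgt
*Ifitm3*, chr7:141010695-141010994, minus strand: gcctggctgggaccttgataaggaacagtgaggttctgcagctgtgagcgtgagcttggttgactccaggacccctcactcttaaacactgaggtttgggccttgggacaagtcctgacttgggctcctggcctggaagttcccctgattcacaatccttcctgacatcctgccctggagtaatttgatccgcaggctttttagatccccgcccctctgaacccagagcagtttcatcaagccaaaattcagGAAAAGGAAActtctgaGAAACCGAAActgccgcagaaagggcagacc
*Psmb9*, chr17:34187281-34187580, minus strand: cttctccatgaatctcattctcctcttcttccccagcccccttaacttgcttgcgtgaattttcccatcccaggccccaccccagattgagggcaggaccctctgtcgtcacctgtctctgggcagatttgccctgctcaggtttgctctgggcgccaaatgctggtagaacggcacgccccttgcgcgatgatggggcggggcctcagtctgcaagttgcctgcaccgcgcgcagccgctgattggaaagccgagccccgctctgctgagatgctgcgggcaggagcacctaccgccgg

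*Ifit1* held cores beginning 104 and 85 bases before its start and *Ifit3* held them 156 and 122 bases before. The 3 cores of *Isg15*, beginning 78, 72 and 66 bases before the start, overlapped into 1 run. The single core of *Gbp2* lay 59 bases before the start. Both cores of *Ifitm3* lay past the start, 2 and 19 bases downstream of the start base, and a match to the GAS core TTCNNNGAA (which reads the same on both strands) overlapped the second of them. The *Psmb9* window held neither motif, and 275 of its 300 bases also belong to the window of *Tap1*, which is transcribed the other way from the same stretch. GENCODE M21 places the outermost start of *Psmb9* at base 34187764, upstream of this RefSeq window. The bases before that start were not searched.

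RefSeq windows were matched for 30 of the 39 genes (34 windows, since some genes have several starts). The ISRE core was present in 15 of these 34 windows (44.1%), against 1131 of all 32851 windows of that length (3.44%). The GAS core was present in 8 of the 34 (23.5%), against 8.30% of all windows. Among tested genes outside the 39, 114 of 383 with an ISRE core in the window were lower with TGFβ (29.8%), and 20.1% of the 10168 without one were. Other interferon-stimulated genes were not taken out of this set. Within the 39, 14 of 15 genes with a core fell (median -0.86) and 12 of 15 without one did (median -0.72). *Oas3*, among the 14, passed a filter on low counts only through its vehicle libraries, so a fall is what the filter let through. The 114 were not screened for genes of this kind. A match is a description of letters in a window and shows neither binding nor cause, and the lists of interferon-stimulated genes from which the 39 come are known for this motif.

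With TGFβ, 33 of the 38 genes that could be tested fell, and 0 rose. *Oas3* is among the 33 and in the counts of falls below. Only its vehicle libraries carried it past the filter on low counts, so a fall is what the filter let through. Over all 14334 genes tested, 20.1% fell and 20.5% rose, and 40.7% changed in either direction (edgeR quasi-likelihood test, Benjamini-Hochberg adjusted p below 0.05 over all genes tested). The median log2 fold change of the 38 genes, TGFβ over vehicle, was -0.84, beside -0.0013 for all genes tested, and single values ran from -1.98 for *Psmb9* to -0.22 for *B2m*. A fall by more than 1 on the log2 scale was called in 14 of the 38 (4.36% of all genes tested). All 3 TGFβ libraries lay below all 3 vehicle libraries in 34 of the 38 (26.1% of all genes tested), and in 0 of them above (27.2%). No gene of the 38 was higher at an unadjusted p below 0.05, and none was called higher by an alternative (DESeq2 and limma-voom included), although *Ifi44* had a log2 fold change of 0.005 without 1 vehicle library (29296570 counts). By comparison, 24.9% of all genes tested had an unadjusted p below 0.05 and a higher value with TGFβ. *Mx1* was too low to test, with 36 counts over the 6 libraries. In bulk RNA, fewer cells that express a gene and less RNA per cell cannot be told apart.

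**Figure D1:**
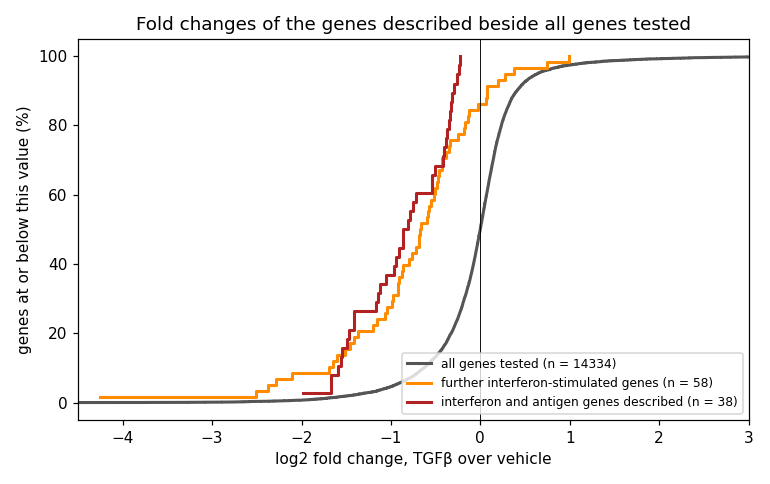
Cumulative share of genes (y axis, percent) by log2 fold change, TGFβ over vehicle (x axis), for all 14334 genes tested, for 58 further interferon-stimulated genes outside the 39, and for the 38 genes described. The curve of the 38 genes lies wholly left of 0, from -1.98 to -0.22, and the far left step of the middle list is *Ifitm1*, whose fitted value rests on 3, 0 and 3 counts with TGFβ and is not a measured fold.

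The vehicle libraries held 31072338, 29296570 and 29331999 counts (named 31.07 M, 29.30 M and 29.33 M below) and the TGFβ libraries 27851677, 28894151 and 28641986 counts (27.85 M, 28.89 M and 28.64 M). Values are CPM, counts divided by the TMM-scaled size of the library, and are given in this order of libraries. Log2 fold changes are TGFβ over vehicle with their standard error (SE), and every adjusted p in the following paragraphs comes from the edgeR quasi-likelihood test, adjusted by Benjamini and Hochberg's method over all genes tested. Counts of genes that fell or rose by role stand beside 20.1% and 20.5% of all genes tested.

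All 4 pattern receptors fell, with a median log2 fold change of -0.93. *Zbp1*, the sensor of Z-form nucleic acid that can start necroptosis, changed most. Its values were 20.1, 29.4 and 25.4 CPM with vehicle and 7.20, 9.31 and 8.91 CPM with TGFβ. The lowest vehicle library was thus more than 10 CPM above the highest TGFβ library (log2 fold change -1.56, SE 0.15, edgeR adjusted p = 2.15e-04). *Dhx58*, which codes for LGP2, the RIG-I-like receptor without a signalling domain, went from 10.4, 13.3 and 9.69 CPM to 5.52, 5.87 and 4.70 CPM (-1.05, SE 0.14, edgeR adjusted p = 9.49e-04). *Ifih1* codes for MDA5, the sensor of long double-stranded RNA, and measured 41.5, 53.9 and 43.0 CPM with vehicle against 25.2, 30.9 and 22.9 CPM with TGFβ (-0.81, SE 0.13, edgeR adjusted p = 2.27e-03). In all 3 of these genes the groups stood apart. *Ddx58*, which codes for RIG-I, the sensor of RNA with a free triphosphate end, was the most abundant of the 4 in CPM and changed least. It had 92.2, 114 and 87.4 CPM with vehicle and 83.6, 80.5 and 65.8 CPM with TGFβ (-0.35, SE 0.12, edgeR adjusted p = 0.0472), a gap of under 4 CPM between the nearest libraries of the groups. The antisense transcript *Dhx58os* overlaps *Dhx58* and had 28.7% as many counts.

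The 4 transcription factors of the response all fell, with a median of -0.65. *Irf7*, which amplifies type I interferon production, had 19.1, 29.5 and 20.1 CPM with vehicle and 13.0, 12.7 and 9.44 CPM with TGFβ (-0.97, SE 0.19, edgeR adjusted p = 5.03e-03). The library of 29.30 M counts stood well above the other vehicle libraries, and the groups did not overlap. *Irf1*, an activator of the antigen processing genes and a classical target of type II interferon, had 27.8, 32.1 and 33.0 CPM with vehicle and 16.6, 19.2 and 19.3 CPM with TGFβ (-0.75, SE 0.09, edgeR adjusted p = 4.55e-04). *Stat2* went from 64.5, 83.7 and 58.4 CPM to 50.3, 51.5 and 40.4 CPM (-0.54, SE 0.14, edgeR adjusted p = 0.0186). *Irf9*, its partner in ISGF3, moved less, from 44.8, 48.1 and 40.1 CPM to 38.5, 36.0 and 33.9 CPM (-0.30, SE 0.08, edgeR adjusted p = 0.0168), and its lowest vehicle library was within 2 CPM of its highest TGFβ library. *Irf7* overlaps *Phrf1* on the other strand by 45 exon bases, and *Phrf1* had 365% of its counts, and *Irf9* overlaps *Rnf31* on the same strand (62.4% of its counts). Whether the authors' counting used strand is not given in the sources used here.

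In the ISG15 pathway, which attaches a ubiquitin-like protein to other proteins, 2 of 4 genes fell and the median was -0.48. *Isg15*, the modifier itself, had 29.0, 43.2 and 29.9 CPM with vehicle and 25.4, 27.0 and 17.4 CPM with TGFβ. Its groups did not overlap, but the spread within each group was wide, and its log2 fold change of -0.55 (SE 0.20) missed the threshold with an edgeR adjusted p of 0.0609 (0.0127 by DESeq2, and 0.0287 to 0.179 under the other alternatives). *Usp18*, the protease that removes ISG15 and also dampens signalling at the type I receptor, overlapped between groups, at 12.6, 21.0 and 10.8 CPM against 11.6, 12.8 and 8.87 CPM (-0.42, SE 0.25, edgeR adjusted p = 0.227). *Herc6*, the ISG15 ligase of the mouse, had 5.97, 9.04 and 7.41 CPM with vehicle and 3.84, 5.09 and 4.63 CPM with TGFβ (-0.72, SE 0.17, edgeR adjusted p = 0.0126). *Trim25*, a ubiquitin ligase that acts on RIG-I, fell by 0.40 (SE 0.09, edgeR adjusted p = 9.45e-03), from 57.0 to 74.1 CPM with vehicle to 48.0 to 50.4 CPM with TGFβ. Of the *Herc6* transcript, 22.4% of the 75-base windows also occur in a transcript of another gene model, so its counts are less certain.

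**Figure D2:**
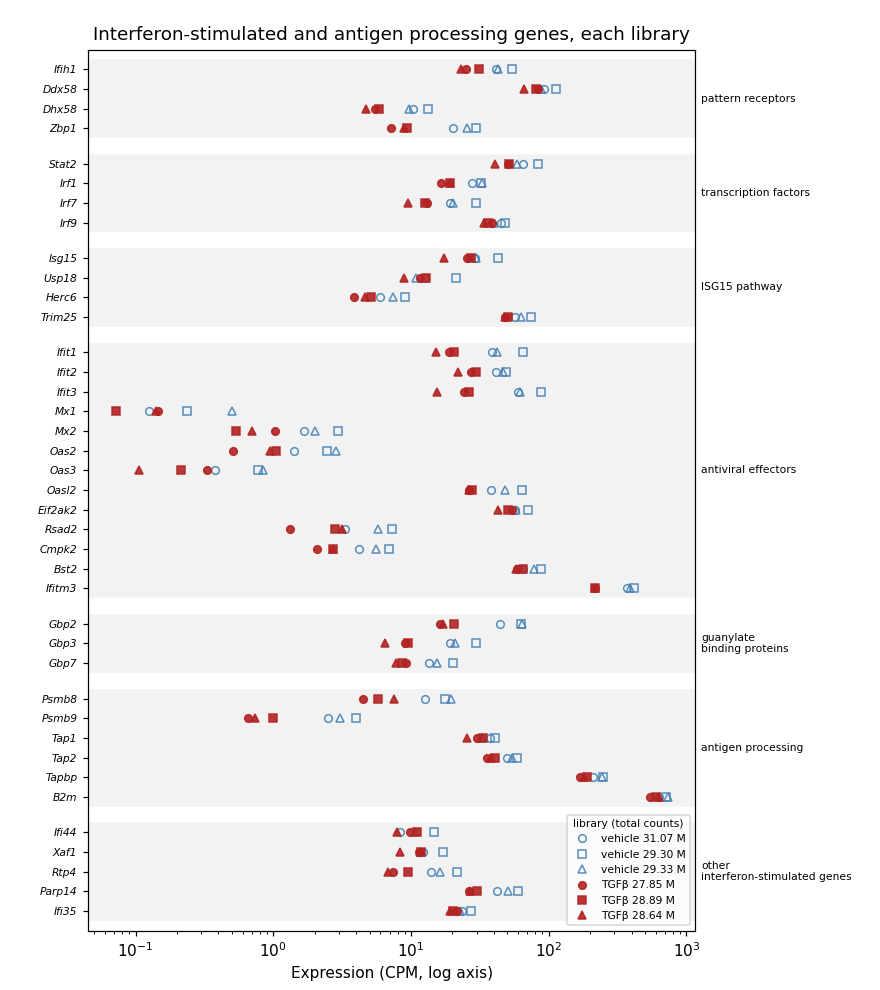
Expression of each of the 39 genes in each library (CPM, log axis), grouped by role, with open symbols for the 3 vehicle and filled symbols for the 3 TGFβ libraries. The filled symbols sit left of the open ones in 34 rows, and overlap is seen in *Usp18*, *Mx1*, *Tap1*, *Ifi44* and *Xaf1*.

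Antiviral effectors were the largest group, and the 12 of 13 that could be tested fell, with a median of -1.15. The *Ifit* genes lie side by side on chromosome 19 and code for proteins that bind viral RNA. *Ifit3* (chr19:34583531-34588731) had 60.0, 88.0 and 62.2 CPM with vehicle and 24.3, 26.4 and 15.5 CPM with TGFβ. All 3 TGFβ libraries were thus below 27 CPM and all vehicle libraries at 60.0 CPM or more (-1.67, SE 0.21, edgeR adjusted p = 7.12e-04). *Ifit1* (chr19:34640871-34650009), which binds RNA caps that lack the mark of the host, had 38.5, 65.2 and 41.9 CPM with vehicle and 19.0, 20.4 and 15.2 CPM with TGFβ (-1.42, SE 0.21, edgeR adjusted p = 1.37e-03). *Ifit2* (chr19:34550694-34576419) changed less, from 41.2, 48.9 and 46.5 CPM to 27.5, 29.6 and 21.9 CPM (-0.79, SE 0.11, edgeR adjusted p = 1.16e-03). Of its 2 promoter windows, 1 held a GAS core and neither held an ISRE core. Of *Ifit3*, 41.1% of the 75-base windows also occur in its copy *Ifit3b*, which fell by 1.45 (SE 0.29, edgeR adjusted p = 5.98e-03), so the split of reads between these copies is uncertain.

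The oligoadenylate synthetases make a second messenger that activates RNase L. *Oasl2*, a family member on chromosome 5, was the only one of the 3 above 30 CPM with vehicle, at 38.2, 64.2 and 48.4 CPM with vehicle and 26.4, 27.6 and 26.4 CPM with TGFβ (-0.90, SE 0.17, edgeR adjusted p = 3.91e-03). *Oas2* had 45, 73 and 85 counts with vehicle and 14, 29 and 27 counts with TGFβ (-1.42, SE 0.34, edgeR adjusted p = 0.0125). *Oas3* had 12, 23 and 25 counts against 9, 6 and 3 counts (-1.60, SE 0.46, edgeR adjusted p = 0.0265). Only the vehicle libraries carried *Oas3* past the filter on low counts, so a fall is what the filter let through. Of the Mx GTPases, which block the entry and replication of viruses, *Mx2* had 53, 88 and 60 counts with vehicle and 28, 15 and 20 counts with TGFβ (-1.55, SE 0.31, edgeR adjusted p = 5.4e-03), and GENCODE M21 lists it as a polymorphic pseudogene. *Mx1* had 4, 7 and 15 counts against 4, 2 and 4 counts, and overlapped between groups.

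*Ifitm3*, a membrane protein that stops viruses from fusing with the endosome, was the most tightly measured of the effectors. It had 368, 414 and 392 CPM with vehicle and 215, 216 and 215 CPM with TGFβ, so that the TGFβ libraries were nearly equal and the vehicle libraries spanned 368 to 414 CPM (-0.86, SE 0.05, edgeR adjusted p = 2.1e-05). *Rsad2* codes for viperin, a radical SAM enzyme that makes a chain-terminating nucleotide, and *Cmpk2* next to it on chromosome 12 for a nucleotide kinase. *Cmpk2* had 4.21, 6.95 and 5.56 CPM with vehicle and 2.08, 2.72 and 2.74 CPM with TGFβ (-1.14, SE 0.21, edgeR adjusted p = 3.67e-03). *Rsad2* was more scattered, at 3.33, 7.25 and 5.80 CPM against 1.32, 2.79 and 3.16 CPM (-1.16, SE 0.36, edgeR adjusted p = 0.0347), and its lowest vehicle library was within 0.2 CPM of its highest TGFβ library. The smallest changes of the group were in *Bst2*, which codes for tetherin and holds budding virus at the cell surface, and in *Eif2ak2*, which codes for the RNA-activated kinase PKR. *Bst2* had 65.2, 87.5 and 78.2 CPM against 59.2, 65.1 and 57.4 CPM (-0.34, SE 0.10, edgeR adjusted p = 0.03). *Eif2ak2* had 57.3, 70.6 and 57.8 CPM against 53.8, 51.0 and 43.0 CPM (-0.33, SE 0.11, edgeR adjusted p = 0.0388). In both, the nearest libraries of the groups were less than 4 CPM apart.

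All 3 guanylate binding proteins, GTPases that attack vacuoles of pathogens and that lie together on chromosome 3, fell, with a median of -1.47. *Gbp2* (chr3:142620602-142638008) had 44.6, 62.4 and 64.1 CPM with vehicle and 16.2, 20.7 and 17.0 CPM with TGFβ. Every TGFβ library was below 21 CPM (-1.67, SE 0.15, edgeR adjusted p = 1.46e-04). *Gbp3* had 19.2, 29.6 and 20.8 CPM against 9.07, 9.53 and 6.45 CPM (-1.47, SE 0.20, edgeR adjusted p = 9.14e-04). *Gbp7* had 13.4, 20.3 and 15.4 CPM against 9.18, 8.63 and 7.75 CPM (-0.94, SE 0.15, edgeR adjusted p = 2.29e-03). In all 3 genes the groups stood apart. Of the *Gbp7* transcript, 11.4% of windows also occur in other transcripts.

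Among the antigen processing genes, 5 of 6 fell, with a median of -0.45, and the size of the fall differed widely between members. *Psmb9* and *Psmb8* code for the interferon-inducible catalytic subunits of the immunoproteasome and lie beside *Tap1* and *Tap2* in the MHC region of chromosome 17. *Psmb9* (chr17:34181987-34187764) had 79, 119 and 91 counts with vehicle and 18, 28 and 21 counts with TGFβ, or 2.48, 4.01 and 3.05 CPM against 0.658, 1.00 and 0.737 CPM. Its log2 fold change of -1.98 (SE 0.25, edgeR adjusted p = 6.52e-04) was the lowest of the 38 genes. *Psmb9* shares 212 exon bases with *Tap1* on the opposite strand, whose counts were 1651% of its own. *Psmb8* (chr17:34197721-34201454) had 12.7, 17.8 and 19.4 CPM with vehicle and 4.50, 5.77 and 7.47 CPM with TGFβ (-1.49, SE 0.21, edgeR adjusted p = 1.10e-03), with the groups more than 5 CPM apart.

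The peptide transporter and the loading proteins changed much less than the immunoproteasome subunits. *Tap2*, which with *Tap1* carries peptides into the endoplasmic reticulum, had 49.6, 58.7 and 54.2 CPM with vehicle and 35.7, 40.5 and 37.8 CPM with TGFβ (-0.51, SE 0.07, edgeR adjusted p = 1.19e-03). *Tap1* had 37.6, 40.6 and 33.0 CPM against 30.4, 33.5 and 25.4 CPM, and its groups overlapped by 1 library on each side (-0.32, SE 0.11, edgeR adjusted p = 0.0528). It passed the threshold in 7 of 12 alternatives, with adjusted p (edgeR, DESeq2 and limma-voom) of 0.0284 to 0.161 over all of them. *Tapbp*, which codes for tapasin, the bridge between the transporter and empty MHC class I, had 211, 246 and 244 CPM with vehicle and 169 to 189 CPM with TGFβ (-0.38, SE 0.07, edgeR adjusted p = 3.91e-03). *B2m*, the light chain of MHC class I, was the most abundant of the 39 genes per length and had 633, 713 and 729 CPM against 547, 603 and 629 CPM (-0.22, SE 0.07, edgeR adjusted p = 0.0434), so that the nearest libraries of the groups differed by less than 5 CPM. Of the *Tapbp* transcript, 17.5% of windows also occur in other transcripts, and of *Tap2*, 8.97%.

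**Figure D3:**
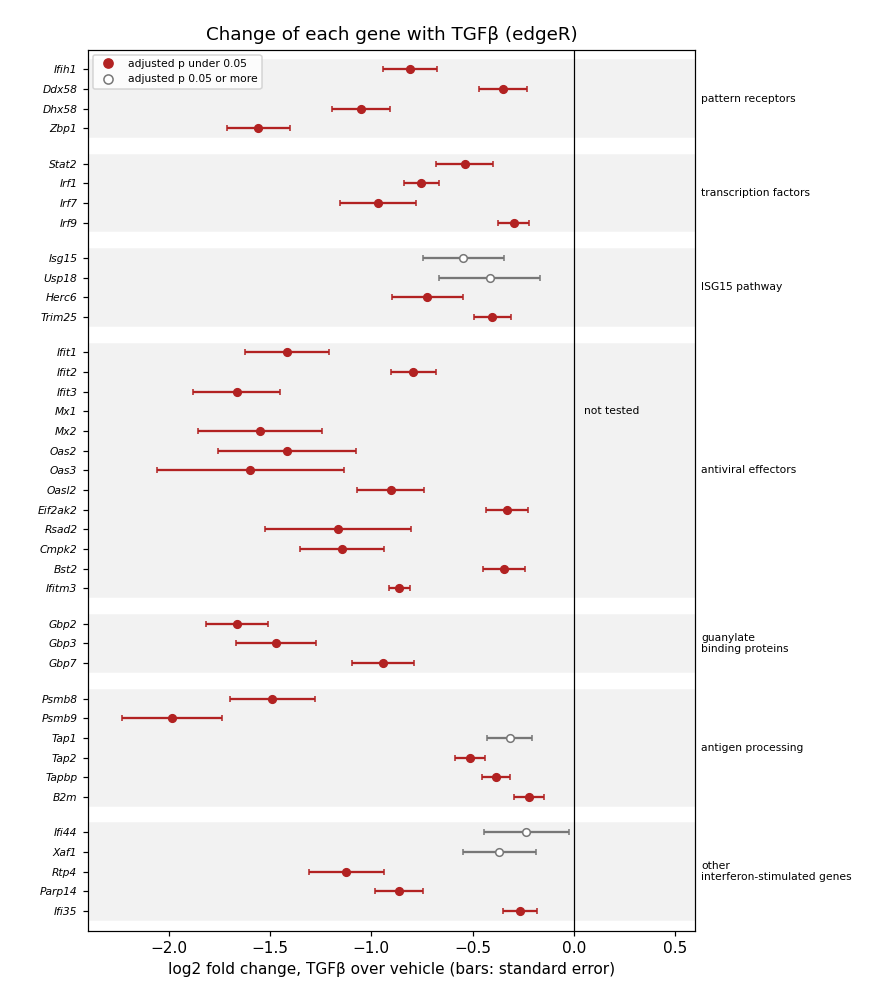
Log2 fold change of each gene, TGFβ over vehicle (x axis, bars show the standard error), by role, from edgeR with 3 libraries a group. All points lie left of 0, the 5 open ones did not pass the threshold, and *Mx1* was not tested.

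The other 5 interferon-stimulated genes had a median of -0.37, and 3 fell. *Rtp4*, a chaperone of membrane receptors, had 13.9, 21.6 and 16.2 CPM with vehicle and 7.35, 9.49 and 6.84 CPM with TGFβ (-1.12, SE 0.19, edgeR adjusted p = 2.34e-03). *Parp14*, an ADP-ribosyltransferase, had 42.3, 59.4 and 50.6 CPM against 26.5, 30.2 and 26.9 CPM (-0.87, SE 0.12, edgeR adjusted p = 9.8e-04). *Ifi35* had 23.4, 27.3 and 22.5 CPM against 21.7, 20.1 and 19.2 CPM (-0.27, SE 0.09, edgeR adjusted p = 0.0397). *Rtp4* and *Parp14* were clearly apart between groups, and *Ifi35* by less than 1 CPM. *Xaf1*, an apoptosis factor, overlapped at 12.2, 17.0 and 11.7 CPM against 11.5, 11.9 and 8.28 CPM (-0.37, SE 0.18, edgeR adjusted p = 0.143). *Ifi44* overlapped as well, at 8.36, 14.7 and 10.8 CPM against 9.83, 11.1 and 7.86 CPM (-0.23, SE 0.21, edgeR adjusted p = 0.414).

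Levels between genes were compared per length, in RPKM (CPM per kilobase of the gene's exons). In vehicle, *B2m* was highest at 804.6 ± 60.1 RPKM (SD, n = 3), and *Ifitm3* came next at 577 ± 33.7 RPKM. *Bst2* at 85.2 ± 12.4 and *Tapbp* at 64.4 ± 5.41 RPKM followed, and their ranges of 1 SD did not overlap. *Isg15* at 45.0 ± 10.5 RPKM and *Ifit3* at 40.1 ± 8.93 RPKM had overlapping ranges of 1 SD. Within each vehicle library *Isg15* was nonetheless higher, at 38.4, 57.1 and 39.5 RPKM against 34.4, 50.4 and 35.6 RPKM for *Ifit3*. At the other end, *Oas2* had 0.504 ± 0.167, *Oas3* 0.0939 ± 0.0354 and *Mx1* 0.0761 ± 0.0512 RPKM, and *Oas3* and *Mx1* did not differ beyond their spread. With TGFβ, *B2m* (689 ± 49.0 RPKM) and *Ifitm3* (318 ± 0.549 RPKM) were again the highest. *Ifit3* stood at 12.7 ± 3.30 RPKM, less than *Isg15* at 30.8 ± 6.81 RPKM by more than their spread. With vehicle their ranges of 1 SD had overlapped.

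Within each group, most of the genes were highest in the same library. The vehicle library of 29.30 M counts was the highest of its group in 32 of the 39 genes, and in 30.8% of all genes tested. The vehicle library of 31.07 M counts was the lowest in 31 of the 39 and the highest in 0 (highest in 34.4% of all genes tested). Summed over the 39 genes, the vehicle libraries had 2228.6, 2742.7 and 2467.3 CPM and the TGFβ libraries 1657.2, 1778.3 and 1667.2 CPM. With TGFβ, the library of 28.89 M counts was highest in 25 of the 39 (31.1% of all genes tested) and that of 28.64 M lowest in 23. The share of all genes in which a library was lowest was not computed. The libraries of 29.30 M and 28.89 M counts hold the middle column of their groups, and whether they share a preparation was not tested. Leaving out the vehicle library of 29.30 M counts changed the calls most. Without it 25 of the 38 genes fell, without any one of the other 5 libraries 28 to 31 did, and 0 rose in each case. Over all genes, too, this library moved the calls most, from 2884 lower and 5828 in all to 2246 lower and 4489 in all. The 8 genes that lost the call without it were *B2m* (edgeR adjusted p = 0.131), *Bst2* (0.0849), *Ddx58* (0.132), *Eif2ak2* (0.111), *Ifi35* (0.114), *Irf9* (0.0557), *Oas3* (0.0795) and *Rsad2* (0.112). Over the 12 alternative fits (11 for *Oas3*, which the filter of 1 CPM removed) the adjusted p ran from 0.0188 to 0.132 for *B2m*, from 0.00435 to 0.0912 for *Bst2*, from 0.0139 to 0.132 for *Ddx58*, from 0.0146 to 0.111 for *Eif2ak2*, from 0.0278 to 0.114 for *Ifi35*, from 0.00613 to 0.0557 for *Irf9*, from 0.0119 to 0.0795 for *Oas3* and from 0.00343 to 0.112 for *Rsad2*, which was also lost by limma-voom (0.0516). Of these, all but *Irf9* also lost it when one or another of the other libraries was left out. The other 25 passed in each of these fits, and 22 genes passed at an adjusted p below 0.01.

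**Figure D4:**
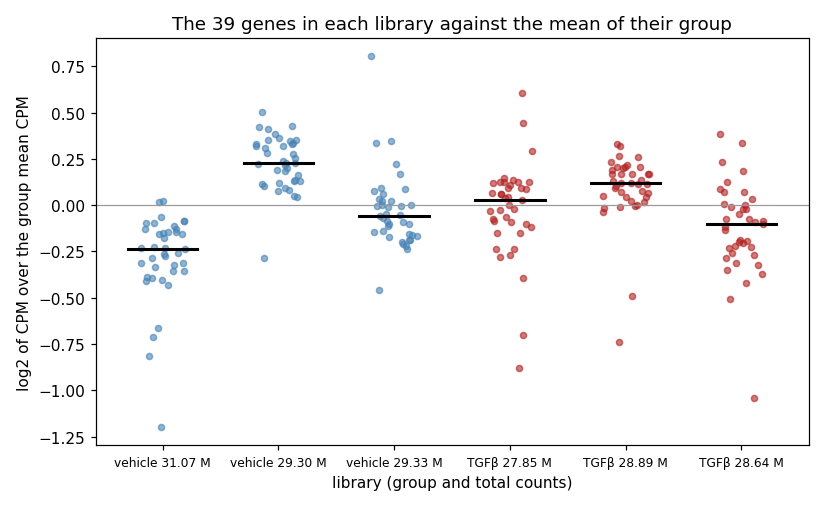
Each point is 1 of the 39 genes in 1 library, as log2 of its CPM over the mean CPM of its group (y axis), and the black bar is the median. The medians are -0.24, 0.23 and -0.06 in the vehicle libraries of 31.07, 29.30 and 29.33 M counts, and 0.03, 0.12 and -0.10 in the TGFβ libraries of 27.85, 28.89 and 28.64 M counts.

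The upstream pathway was described with genes outside the 39. Of 15 interferon ligand genes listed, 1 (*Ifnz*) had a row, with 3 to 6 counts per library and no test, and the other 14, *Ifnb1* among them, were not analysed here. Of 18 receptors, kinases, STAT factors and feedback inhibitors, 16 fell and 1 rose (20.1% and 20.5% of all genes tested), with a median of -0.41. Both chains of both receptors fell. *Ifnar2*, the signalling chain of the type I receptor, had 75.8, 82.6 and 91.5 CPM with vehicle and 41.1, 45.7 and 46.2 CPM with TGFβ (-0.91, SE 0.08, edgeR adjusted p = 1.04e-04), and *Ifnar1* fell by 0.24 (SE 0.04, edgeR adjusted p = 3.46e-03). For the type II receptor the log2 fold changes were -0.58 (SE 0.08) for *Ifngr1* and -0.41 (SE 0.05) for *Ifngr2*, with edgeR adjusted p of 8.55e-04 and 5.82e-04. The largest fall of the list was in *Socs3*, a feedback inhibitor of cytokine receptors, at -1.27 (SE 0.08, edgeR adjusted p = 2.62e-05), followed by *Ifnar2* and by the phosphatase *Ptpn6* at -0.70 (SE 0.17, edgeR adjusted p = 0.0146). The rise was in the phosphatase *Ptpn11* (0.14, SE 0.04, edgeR adjusted p = 0.0294), and it was called with only 1 of the 6 libraries left out in turn, the TGFβ library of 28.64 M counts. The count of this list ran from 11 to 15 called genes when each library was left out in turn, lowest without the TGFβ library of 28.89 M counts, and *Ifnlr1*, among the 16, passed the filter only with the help of its vehicle libraries.

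The adaptors and factors that link the sensors to interferon production gave a different count. Of 16 tested, 6 fell and 0 rose, with a median of -0.07 (0 also rose at an unadjusted p below 0.05, and 0 by DESeq2). Over all genes tested, 20.1% fell and 20.5% rose. The largest falls were in *Ikbke*, a kinase of IRF factors (-0.76, SE 0.08, edgeR adjusted p = 2.3e-04), in the Toll-like receptor adaptor *Myd88* (-0.74, SE 0.07, edgeR adjusted p = 1.46e-04) and in *Irf2* (-0.60, SE 0.05, edgeR adjusted p = 1.1e-04). *Irf3*, the first factor to be activated in many cells, had 27.0, 28.7 and 27.2 CPM with vehicle and 28.2, 27.0 and 29.6 CPM with TGFβ (0.03, SE 0.05, edgeR adjusted p = 0.657), and its groups overlapped. *Myd88* overlaps *Acaa1a* on the other strand, which had 126% of its counts.

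A further list of 64 interferon-stimulated genes outside the 39 had 58 tested. Of the 58, 37 fell and 3 rose (20.1% and 20.5% of all genes tested), with a median of -0.67. Of these, *Ifitm1*, *Gbp4* and *Oas1g* passed the filter on low counts only with the help of their vehicle libraries, and 2 of them are among the 37. The largest falls among those with a mean of at least 1 CPM were in *Gbp6* (-2.51, SE 0.28, edgeR adjusted p = 4.03e-04), the immunity-related GTPase *Iigp1* (-2.37, SE 0.32, edgeR adjusted p = 9.67e-04) and *Gbp5* (-2.28, SE 0.30, edgeR adjusted p = 8.45e-04). *Iigp1* had 8.70, 20.7 and 16.3 CPM with vehicle and 2.38, 3.47 and 2.95 CPM with TGFβ, with no overlap. The 3 that rose were *Apol9b* (0.99, SE 0.14, edgeR adjusted p = 1.02e-03), *Irgm1* (0.74, SE 0.08, edgeR adjusted p = 2.69e-04) and the DNA sensor *Aim2* (0.38, SE 0.11, edgeR adjusted p = 0.0225). *Irgm1*, an immunity-related GTPase that restrains others of its family, had 98.2, 105 and 89.2 CPM with vehicle and 174, 165 and 149 CPM with TGFβ, so its groups stood apart in the opposite direction to *Iigp1*. Other gene models share 55.2% of the windows of *Gbp6* and 41.6% of those of *Apol9b*.

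On the antigen side, 15 genes for MHC class I heavy chains, their transactivator and peptide loading had a median of -0.52. Of the 15, 8 fell and 3 rose, beside 20.1% and 20.5% of all genes tested, so the rises were near the general share. *H2-T24*, among the 8, passed the filter only with the help of its vehicle libraries. *Nlrc5*, the transactivator of MHC class I genes, had 4.68, 6.64 and 5.80 CPM with vehicle and 2.05, 2.61 and 2.14 CPM with TGFβ (-1.33, SE 0.17, edgeR adjusted p = 7.08e-04). The classical heavy chains changed less. *H2-K1* had 253, 311 and 332 CPM against 227, 266 and 280.0 CPM, with overlap (-0.21, SE 0.11, edgeR adjusted p = 0.172), and *H2-D1* passed narrowly with overlapping groups, at 265, 323 and 351 CPM against 211 to 273 CPM (-0.35, SE 0.12, edgeR adjusted p = 0.0488). The non-classical chains *H2-Q4* and *H2-M3* fell by 1.16 (SE 0.18) and 0.95 (SE 0.13), with edgeR adjusted p of 1.67e-03 and 8.74e-04, and 21.3% of the *H2-Q4* windows occur in another gene model. The 3 that rose were general chaperones of the endoplasmic reticulum that also serve peptide loading, *Pdia3* (0.45, SE 0.05, edgeR adjusted p = 2.4e-04), *Calr* (0.41, SE 0.06, edgeR adjusted p = 1.57e-03) and *Canx* (0.35, SE 0.04, edgeR adjusted p = 6.42e-04). Most MHC class II genes had low counts, and 2 passed the filter of at least 1 CPM in 3 libraries. Of 8 with a row, 5 were tested and 1 fell (20.0%, beside 20.1% of all genes tested). It was *H2-Ab1*, with 31, 23 and 23 counts against 14, 9 and 15 (-0.89, SE 0.26, edgeR adjusted p = 0.0274). That call was absent by DESeq2 and without the vehicle libraries of 31.07 M or 29.30 M or the TGFβ libraries of 27.85 M or 28.89 M counts. *H2-Ab1* passed the filter only with the help of its vehicle libraries, and it was named after its values were seen.

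The immunoproteasome forms when inducible subunits take the place of the standard catalytic subunits, so the ratio of each pair was computed within each library, from RPKM. The ratio of *Psmb8* to the standard subunit gene *Psmb5* was 0.0856, 0.135 and 0.139 with vehicle and 0.0260, 0.0312 and 0.0386 with TGFβ. The mean was 0.120 ± 0.0296 (SD, n = 3) with vehicle and 0.0319 ± 0.00634 (SD, n = 3) with TGFβ. Taken from the difference of the mean log2 ratios (-1.89), the ratio was 3.71-fold lower. For *Psmb9* over *Psmb6* the means were 0.0222 ± 0.00586 and 0.00454 ± 0.00103 (SD, n = 3), and the ratio was 4.87-fold lower by the same log2 measure. For *Psmb10* over *Psmb7* the means were 0.578 ± 0.0786 and 0.257 ± 0.0284 (SD, n = 3), and the ratio was 2.24-fold lower by that measure. In all 3 ratios each TGFβ library was below each vehicle library, and the two-sided exact permutation test gave p = 0.1 (0.1 adjusted over the 3 ratios), the smallest p that 3 libraries against 3 allow, so this test could not reach 0.05. Both parts of each ratio moved, since *Psmb5*, *Psmb6* and *Psmb7* rose by 0.39, 0.29 and 0.40 on the log2 scale (edgeR adjusted p = 1.79e-03, 9.28e-04 and 5.38e-04) and *Psmb10* fell by 0.76 (SE 0.10, edgeR adjusted p = 7.87e-04). In the list of 8 proteasome genes outside the 39, 3 fell and 5 rose (20.1% and 20.5% of all genes tested). Of the genes of the proteasome activator PA28, *Psme1* fell by 0.50 (SE 0.05, edgeR adjusted p = 1.64e-04) and *Psme2* by 0.36 (SE 0.05, edgeR adjusted p = 1.29e-03), and *Psme3* rose by 0.20 (SE 0.04, edgeR adjusted p = 5.58e-03). The assembly chaperone gene *Pomp* rose by 0.17 (SE 0.05, edgeR adjusted p = 0.0386). Other genes share 40.0% of the *Psmb5* windows and 51.7% of those of *Psme2*, and *Psmb7* overlaps *Nek6* on the other strand, so the absolute ratios depend on how such reads were counted.

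**Figure D5:**
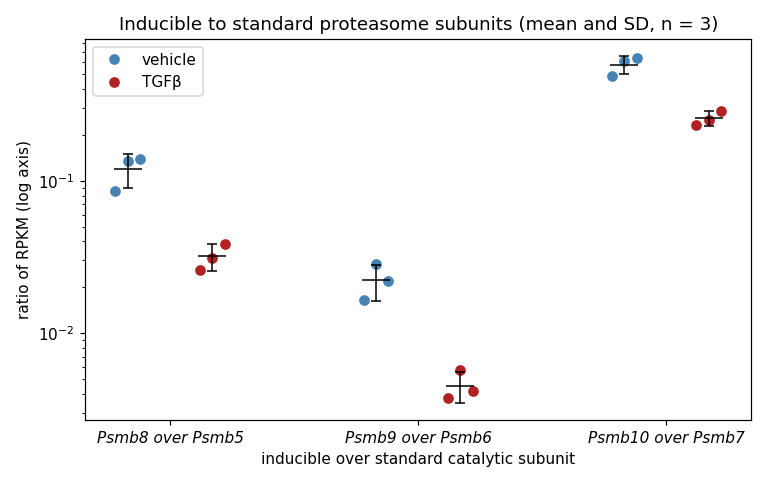
Ratio of the inducible to the standard catalytic subunit in each library (RPKM over RPKM, log axis), with the mean and SD of 3 libraries. The TGFβ points lie below the vehicle points in all 3 pairs. From the mean log2 ratios, the fall was 3.71-fold for *Psmb8* over *Psmb5*, 4.87-fold for *Psmb9* over *Psmb6* and 2.24-fold for *Psmb10* over *Psmb7*.

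Marker genes of cells that might accompany the fibroblasts were measured beside these results. Over all genes tested, 20.1% fell and 20.5% rose. The 9 fibroblast markers were abundant in every library (summed, 49750 to 63010 CPM), and 7 of 9 fell with TGFβ and 0 rose, with *Pdgfra* at -1.37 and *Col3a1* at -0.94, while *Col1a1* (0.23, edgeR adjusted p = 0.055) and *Col1a2* (0.13, 0.196) were not called. The 6 cardiac factors *Tcf21*, *Gata4*, *Gata6*, *Tbx5*, *Tbx20* and *Hand2* were present in every library, and 3 of 6 fell (*Tcf21*, *Tbx20* and *Hand2*). The summed level of the 9 leukocyte markers with a row was 254.5 to 362.5 CPM with vehicle and 220.6 to 328.7 CPM with TGFβ. Of 7 tested, 0 were called. The macrophage genes *Lyz2* and *Csf1r* were present in every library, and the B cell gene *Cd79a* had at most 1 count in a library. The 9 endothelial markers summed to 485 to 747.5 CPM with vehicle and 442.6 to 613.9 CPM with TGFβ, and 0 of 9 were called. Their log2 fold changes ran from -0.38 (SE 0.24) for *Cdh5* to 0.25 (SE 0.12) for *Tek*. The 6 mesothelial markers summed to 25.1 to 91.8 CPM and 16.8 to 48.6 CPM, and 0 of 6 were called. Their log2 fold changes ran from -1.45 (SE 0.91) for *Lrrn4* to 0.61 (SE 0.27) for *Msln*. With 3 libraries a group, a marker that was not called is not shown to be unchanged. Of 7 mural markers, 1 fell (*Notch3*) and 1 rose (*Cspg4*), and 0 of 3 tested cardiomyocyte markers were called. The vehicle library highest in the interferon genes (29.30 M counts) was not the highest in leukocyte, endothelial or mesothelial markers. The vehicle library of 31.07 M counts was the lowest of its group in 31 of the interferon genes. It was also lowest in the summed leukocyte (254.5 CPM), endothelial (485 CPM), fibroblast (53180 CPM) and mural (267.3 CPM) markers. It was highest in the mesothelial (91.8 CPM), cardiac (1206 CPM) and cardiomyocyte (60.08 CPM) ones. The TGFβ library of 28.64 M counts was the lowest of its group in 23 of the 39 genes. That library was the highest of its group in the summed leukocyte (328.7 CPM) and endothelial (613.9 CPM) markers. Whether RNA of such cells had a part in the fall of the interferon genes was not tested.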

How the data were processed

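RNA was measured in 6 libraries, 3 of vehicle-treated and 3 of TGFβ-treated cardiac fibroblasts. Per the labels, TruSeq stranded mRNA libraries were made, and reads of 75 bases were sequenced single-end by the paper's methods and assigned to mm10. The authors deposited counts of reads per gene, not normalized, as whole numbers (27851677 to 31072338 per library), beside their own DESeq2 mean, fold change, p-value and adjusted p columns, which were not used. The aligner, counter, annotation and use of strand are not given in the sources used here. Columns name the group without a replicate number, so libraries are named by their total counts. Library pairs of a group differed beyond counting noise (chi-square per gene 7.93 to 26.8), so none was treated as a repeat deposit of another. That they are biological replicates rests on the study's description, and p-values measure the spread between them. Chromatin accessibility data were not analysed here.

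From the counts, TMM factors, a low-count filter (filterByExpr), the quasi-likelihood test and CPM were computed with edgeR 4.0.16 in R 4.3.3. The standard error is the fold change over the root of the F statistic. A log2 fold change is called at an adjusted p below 0.05 over 14334 genes. RPKM uses exon lengths of GENCODE M21. The spread between libraries beyond counting error (biological coefficient of variation, edgeR) was 7.97%. Counting error grows as counts fall, and at about 100 counts it was not small beside this spread. The count above which it becomes small was not tested. Alternatives were RLE and upper quartile factors, DESeq2 1.42.0, limma-voom 3.58.1, no filter, a filter of 1 CPM in 3 libraries, an adjusted p of 0.01, plain count ratios and each library left out. The steps were also run on simulated counts with independent libraries and planted changes, which cannot show that the tests hold for these data. The 39 genes, the pathway lists and the motifs were chosen with earlier results of these data known. Named outside the 39 were 14 genes fixed by name and, in each list, the 3 largest rises and falls that passed the test in genes averaging 1 CPM or more. *Ifit3b*, *Psme3*, *Pomp*, *H2-Ab1* and *Ifnz* fell outside this rule. So did the marker genes and genes named for the filter or for overlapping or shared reads. Some results that this rule takes in are not reported here. Shared reads were gauged by the 75-base windows of a gene's longest transcript that occur in other genes.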

Additional observations from a re-analysis of the deposited data

How the results depend on the processing

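No paired analysis was possible by label, because the count columns name the group but carry no replicate number. In column order, the summed leukocyte markers were 254.5, 266.3 and 362.5 CPM with vehicle and 220.6, 236.8 and 328.7 CPM with TGFβ. The mesothelial ones were 91.8, 25.1 and 35.3 CPM against 48.6, 16.8 and 20.2 CPM. Of the marker lists, only the mural one changed order (267.3, 286.8 and 295.1 against 191.1, 140.6 and 178.4 CPM). No fit by column position was made, and whether columns in the same place share a preparation was not tested. Of 455 values for single genes under an alternative, 415 kept their direction and side of the threshold, 30 kept the direction and lost the threshold, 9 gained it and 1 turned, *Ifi44*, at 0.005 without the vehicle library of 29.30 M counts (-0.41 to 0.005 with each library left out). The count of the 39 genes called ran from 25 to 31 with each library left out in turn, and was 34 under both other scalings, 35 by DESeq2 and with no filter, 32 by limma-voom, 33 with the 1 CPM filter and 22 at an adjusted p of 0.01, all of them lower with TGFβ. Over all genes, 3595 were called at 0.01 in place of 5828. The receptor and kinase list had 8 of 18 called at 0.01 in place of 17, and 11 to 15 with each library left out. The MHC class II list had 0 called in place of 1 by DESeq2, with the 1 CPM filter and at 0.01, and 0 to 1 with each library left out. Ratios of plain counts give the proteasome pairs the same log2 differences by construction. No scaling moved the median of all genes by over 0.1 on the log2 scale (upper quartile, -0.02). Low counts limit *Mx1*, whose fold change without a filter was -1.23 (SE 0.60, edgeR adjusted p = 0.199), *Oas3* and most MHC class II genes. Why these counts were low was not tested.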
